A study of Mus musculus with 22 samples.

Results

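The genes described here are the replication-dependent histone genes of the mouse, which code for the linker histone H1 and the core histones H2A, H2B, H3 and H4. They were taken from the deposited gene table by symbol, as every row whose symbol started with Hist1h, Hist2h, Hist3h or Hist4h. The transcript of highest mean level stood for each symbol, and a gene was kept where it reached 1 RPKM (a read count divided by the length of the transcript and the size of the library) in at least 2 of the 10 RNA libraries. This gave 67 of 68 symbols, among 23953 symbols in the table, of which 11790 reached the same level. The gene left out was Hist1h1t, a testis-type linker histone, with at most 0.138 RPKM in any library. Hist3h2ba lay just inside the limit, with 1.07, 1.05 and 1.28 RPKM in the 3 libraries where it passed. The 67 genes comprised 5 of H1, 18 of H2A, 19 of H2B, 12 of H3 and 13 of H4. The H2B count includes Hist3h2bb-ps, a pseudogene by its symbol. In position, 53 lay in the Hist1 cluster on chromosome 13, 10 in Hist2 on chromosome 3, 3 in Hist3 on chromosome 11, and Hist4h4 alone on chromosome 6.

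Core histones form the protein octamer around which DNA is wrapped in the nucleosome, and H1 binds the DNA that enters and leaves it. The replication-dependent genes are transcribed mainly in S phase, when new DNA has to be packaged, and Npat is the cofactor that switches them on under control of cyclin E. Their mRNAs normally end in a stem-loop in place of a poly(A) tail. Slbp binds this stem-loop, and Lsm10, a part of the U7 particle, takes part in cutting the transcript after it. A small part of histone mRNA carries a poly(A) tail, chiefly in cells that have left the cycle. The RNA libraries were made from poly(A)-enriched RNA, so the levels given here describe the histone RNA recovered in that way and not the whole pool.

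The study compared mutant with normal huntingtin, the protein whose polyglutamine expansion causes Huntington's disease, in microglia and macrophages. BV2, an immortalized murine microglial line, had been transduced with lentivirus carrying the empty vector pCDH-CMV-MCS-EF1-Puro or the same vector with an N-terminal fragment of human huntingtin. The fragment held 15 glutamines (wild type) or 128 (mutant), and each of the 3 constructs gave 1 library labelled 24 h and 1 labelled 48 h, without further treatment. Adult microglia (CD11b+ CD45low cells sorted from cortex, striatum and hippocampus after a Percoll gradient) and bone marrow-derived macrophages (BMDM, grown in L-cell conditioned medium) came from mice with Htt alleles of 7 glutamines (Q7/7) or 175 glutamines (Q175/175), with 1 library of each. All BV2 cells carried the vector, in which a CMV promoter drives the insert. The labels do not say whether the lines were clones, how many mice were pooled, or whether libraries came from separate cultures, so the p-values reflect no more than the spread among the libraries at hand, which may be technical. The later BV2 library is 48 h in the labels and 6 h in the table's header, and is called the second time here, with no order assumed.

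The low RPKM values checked, 464 to 873 per library, were whole multiples of 1 read within 0.1 reads. They implied depths of 10.77 to 14.01 M reads for BV2 and 28.76 to 47.78 M for primary cells. The nominal microglial markers were strong in sorted microglia (9 genes, summed 3696 and 4459 RPKM) and low in BV2 (25.5 to 118, with P2ry12 at most 0.061), whereas the 8 general myeloid markers were present in every library. Genes marking neutrophils (10 genes) summed to 1829 RPKM in Q7 microglia, 584 in Q175 microglia, 471 and 269 in BMDM, and 219.5 in the mutant 24 h BV2 library, where Lcn2 alone gave 219, against 3.26 to 6.73 in the other BV2 libraries. Of 58 genes that the table marks with 2 or more genomic copies and that reached 1 RPKM in all 6 BV2 libraries, 31 (53.4%) were listed at 0 in all 4 primary libraries, against 0.255% of 8619 single-copy genes.

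The single-copy histone genes, many of them near-identical in sequence, also differed in spread between the library sets. In the empty-vector 24 h library, 8 short single-copy Hist1 genes of H3 held between 22 and 32 reads each, and 10 of H4 held between 23 and 45. In Q7 microglia the same genes spread from 28 to 617 reads for H3 and from 16 to 1015 for H4. The coefficient of variation of reads over the H4 genes was 12.7% to 21.3% in BV2 and 100.2% to 143% in primary cells, and over the H3 genes 5.59% to 15.1% and 41.2% to 148%. Over 10 short single-copy Hist1 genes of H2A it was 29.3% to 32.3% in BV2 and 68.4% to 94.9% in primary cells. In the empty-vector 24 h library Hist1h2aa held 17 reads, apart from the other genes of this H2A set, which held between 86 and 126. Sums and medians of a class are therefore given beside single genes, and counts of genes within a class are not counts of separate observations. Whether reads were shared between copies in one set of libraries and not in the other was not tested. Hist1h2ao, Hist1h2ap, Hist1h2bq, Hist1h2br, Hist1h4n, Hist2h2aa1 and Hist2h2aa2 are the 7 histone genes with 2 or more copies. Hist1h2ao and Hist1h2ap were listed at 0 in all primary libraries. Hist1h2bq and Hist1h2br were given the same mm9 position and had identical values, although RefSeq promoters place them apart on opposite strands. Hist1h1e and Hist1h2be also overlap on the same strand, so reads in the shared stretch belong to neither alone.

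The 180 bases before the start of the most abundant gene of each class are shown as examples of the promoter elements searched. A single gene does not stand for its class. They come from RefSeq promoters of build GRCm38.p6, in which 61 of the 67 genes were matched, and capitals mark the CCAAT box, the TATA box in the form TATAAA, the octamer ATTTGCAT and the H1 box AAACACA, each searched on both strands. Hist1h1c lies at chr13:23738627-23738806 on the plus strand, Hist2h2ac at chr3:96220881-96221060 on the minus strand, Hist2h2bb at chr3:96269520-96269699 on the plus strand, Hist1h3e at chr13:23562386-23562565 on the minus strand and Hist1h4d at chr13:23581388-23581567 on the plus strand.
Hist1h1c: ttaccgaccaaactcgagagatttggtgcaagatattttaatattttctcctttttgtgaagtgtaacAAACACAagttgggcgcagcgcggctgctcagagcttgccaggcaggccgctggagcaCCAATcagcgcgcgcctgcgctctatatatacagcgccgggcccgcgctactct
Hist2h2ac: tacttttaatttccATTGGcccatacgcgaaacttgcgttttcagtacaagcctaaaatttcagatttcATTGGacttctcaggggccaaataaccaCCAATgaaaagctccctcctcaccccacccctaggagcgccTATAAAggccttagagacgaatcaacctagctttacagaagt
Hist2h2bb: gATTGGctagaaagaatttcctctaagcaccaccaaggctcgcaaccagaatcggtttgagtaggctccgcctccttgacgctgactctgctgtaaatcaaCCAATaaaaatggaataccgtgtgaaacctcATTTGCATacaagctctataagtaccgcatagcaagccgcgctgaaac
Hist1h3e: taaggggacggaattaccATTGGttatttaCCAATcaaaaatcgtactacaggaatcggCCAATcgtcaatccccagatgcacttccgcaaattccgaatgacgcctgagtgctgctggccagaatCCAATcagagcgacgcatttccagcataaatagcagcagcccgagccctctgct
Hist1h4d: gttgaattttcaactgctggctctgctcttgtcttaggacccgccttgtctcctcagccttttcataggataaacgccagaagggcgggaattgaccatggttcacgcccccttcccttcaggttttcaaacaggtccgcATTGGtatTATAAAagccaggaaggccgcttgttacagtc

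The linker gene Hist1h1c held the AAACACA box 112 bases before its start and a CCAAT 54 bases before it. The H2A gene Hist2h2ac had TATAAA at 42 bases, with 3 CCAAT matches farther out. In the H2B gene Hist2h2bb the octamer ATTTGCAT began 48 bases before the start, behind a CCAAT at 79 bases. Hist1h3e, of H3, showed 4 CCAAT matches and no TATAAA, and Hist1h4d, of H4, a TATAAA at 32 bases with a CCAAT on the opposite strand at 40 bases. Over the whole window of 250 bases before to 50 after the start, CCAAT was present in 52 of 61 histone promoters (85.2%), against 37.4% of 32851 mouse promoters. It was found in every matched promoter of H1, H2A, H2B and H3 but in 3 of 12 of H4. TATAAA was present in 35 of 61 (57.4%, against 13.6%), and in 8 of 12 of H4. The octamer was present in 13 of 61 (21.3%, against 1.74%), 7 of H2A and 6 of H2B, and AAACACA in 8 of 61 (13.1%, against 7.18%), of which 4 were of the 5 H1 genes. Windows of facing genes can overlap, and with both strands searched the same site can count for each gene. The octamer was found in Hist1h2aa and Hist1h2ba, in Hist1h2ae and Hist1h2bg, and in Hist1h2ah and Hist1h2bk, whose windows overlap. By the table's mm9 positions, 27 of the genes formed 14 pairs that start within 1000 bases of each other and point away from a shared promoter. In 11 of the pairs H2A faced H2B, in 2 H2A faced H3 and in 1 H2B faced H3, with 173 to 700 bases (median 281) between the starts. The 2 pairs of H2A with H3 share 1 position, as Hist2h2aa1 and Hist2h2aa2, with more than 1 copy, have the same mm9 start facing Hist2h3c1. In the RefSeq promoters Hist2h2aa1 and Hist2h3c1 both lie on the plus strand. There Hist1h2ao and Hist1h2bq, and Hist1h2ap and Hist1h2br, have overlapping windows on opposite strands but are not in the count.

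The order of the classes differed between the cells. In the 24 h empty-vector BV2 library, the class sums were 447 RPKM for H2A, 296 for H2B, 102 for H4, 60.7 for H3 and 13.9 for H1, so H1 made up 1.51% of the histone total and H2A 48.6%. This H2A sum holds Hist1h2ao, Hist1h2ap, Hist2h2aa1 and Hist2h2aa2, genes with more than 1 copy, at 47.2, 58.9, 51.6 and 45.2 RPKM. Against this, Q7 microglia listed them at 0, 0, 0.66 and 0.712. How far the lead of H2A in BV2 rests on the counting of copies was not tested. In Q7 microglia the sums were 141 for H2A, 154 for H2B, 290 for H4, 96.2 for H3 and 112 for H1, so H4 led with 36.6% and H1 held 14.1%. In Q7 BMDM, H2B led with 792 RPKM, followed by H1 with 713, H2A with 617, H4 with 458 and H3 with 168, and H1 held 25.9%. The plot of levels by class shows each gene in every library, and the plot of class sums sets them beside genes of the cell cycle.

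**Figure D1:**
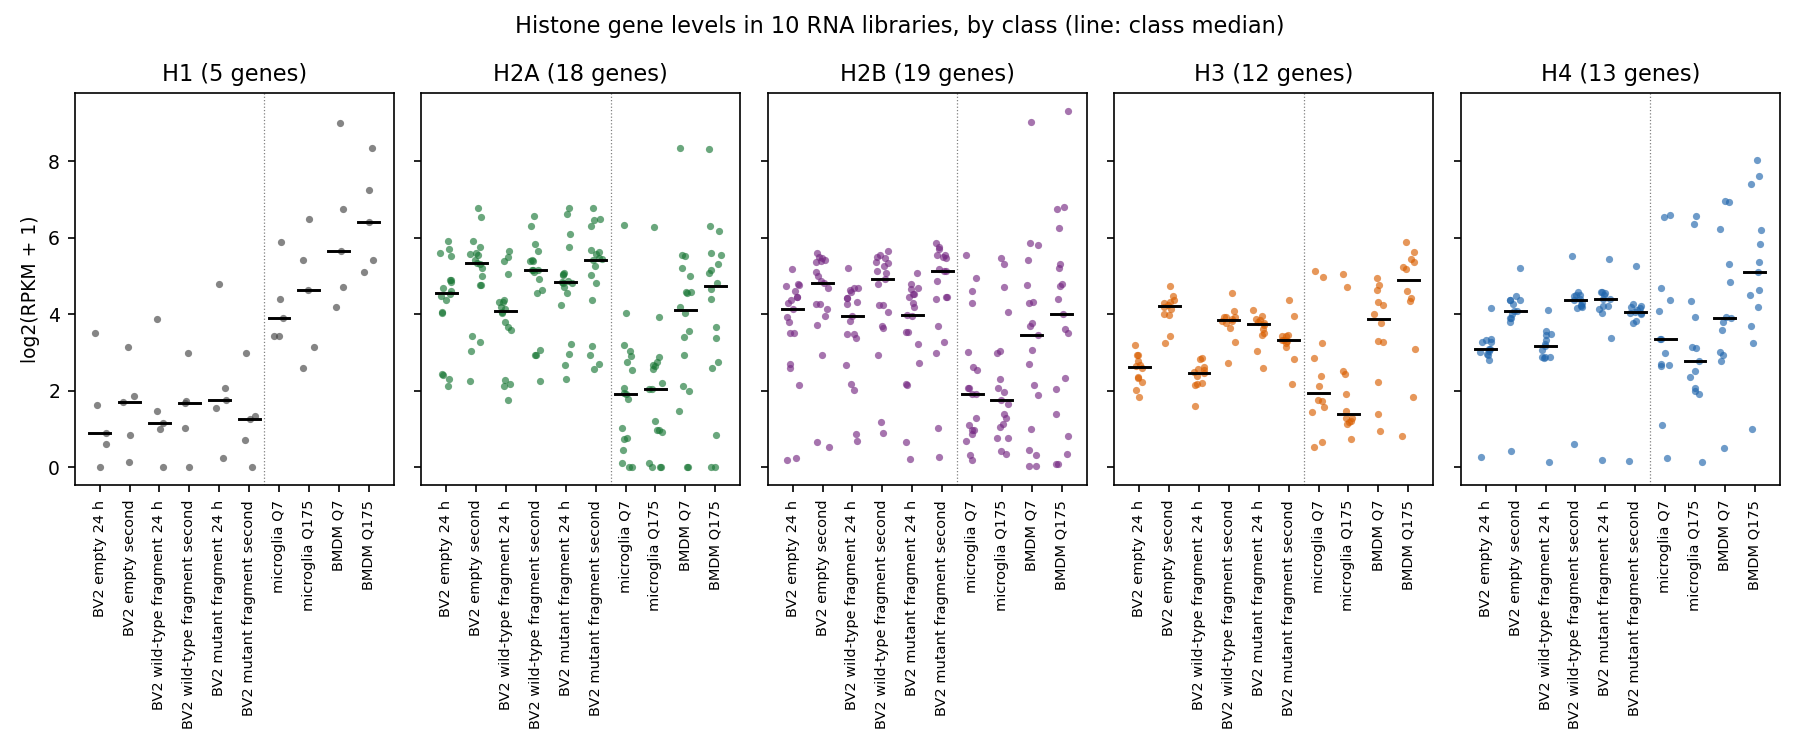
Level of each histone gene on the log2(RPKM + 1) scale (y axis) in the 10 RNA libraries (x axis), 1 panel per class, with points for genes and a line for the class median. H1 genes were low in the 6 BV2 libraries and high in BMDM, and most genes within H3 and H4 lay close together in BV2, with Hist4h4 far beneath the others, and were more spread in primary cells.

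Among linker histones, Hist1h1c (chr13:23830676-23832236, mm9, plus strand) was the most abundant. It was at 10.4 and 7.88 RPKM in empty-vector cells (24 h, then the second time), 13.6 and 6.89 in wild-type-fragment cells, 26.8 and 6.98 in mutant-fragment cells, 58.1 and 88.9 in Q7 and Q175 microglia, and 513 and 324 in Q7 and Q175 BMDM. Hist1h1b (chr13:21871752-21872423, minus strand), in the same library order, was at 0.537, 2.66, 1.02, 2.24, 1.96 and 1.39 RPKM in BV2, at 9.88 and 5.09 in microglia, and at 107 and 149.8 in BMDM. Each of these genes was higher in both BMDM libraries than in any other library. Hist1h1a rested on 0 to 2 reads in BV2 libraries, against 168 to 2983 in primary ones, so its BV2 level was not measurable at this depth.

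Of the H2A genes, Hist2h2ac (chr3:96024378-96024767, minus strand) was at 15.8, 26.3, 11.2, 22.4, 28.2 and 19.9 RPKM in the 6 BV2 libraries, 79.0 and 76.5 in microglia, and 322 and 317 in BMDM. It supplied 55.9% and 57.6% of all H2A in microglia and 52.2% and 41.2% in BMDM. Hist1h2ap (chr13:21902336-21902728) showed the opposite order, at 58.9, 109, 40.8, 93.3, 67.8 and 109 RPKM in BV2 and listed at 0 in the 4 primary libraries. It is 1 of the genes with more than 1 copy, so the 0 in primary libraries is not read as a level.

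Of the H2B genes, Hist2h2bb (chr3:96073623-96074115, plus strand) was at 5.51, 16.6, 3.10, 11.6, 3.42 and 11.9 RPKM in BV2, 45.8 and 38.7 in microglia, and 518 and 630.2 in BMDM. It made up 65.4% of H2B in Q7 BMDM and 56.4% in Q175 BMDM. Hist1h2bc (chr13:23776068-23784349, plus strand), whose genomic span is much longer than that of most histone genes, was at 35.5, 40.0, 36.1, 43.4, 32.7 and 56.7 RPKM in BV2, 18.8 and 25.3 in microglia, and 42.0 and 75.1 in BMDM. The ranges of BV2 and BMDM overlapped for Hist1h2bc and lay far apart for Hist2h2bb.

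Of the H3 genes, Hist1h3e (chr13:23653824-23654234, minus strand) was at 6.60, 19.9, 4.83, 13.7, 13.5 and 9.77 RPKM in BV2, 30.6 and 25.1 in microglia, and 18.8 and 42.3 in BMDM. Hist1h3c (chr13:23836911-23837390, minus strand) was at 4.15, 16.6, 4.94, 13.1, 11.3 and 7.79 RPKM in BV2, 8.501 and 4.45 in microglia, and 30.0 and 57.8 in BMDM. In microglia H3 was narrow: Hist1h3a and Hist1h3e together supplied 67% of it in the Q7 library and 73.1% in the Q175 library.

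Of the H4 genes, Hist1h4d (chr13:23673471-23673782, plus strand) was at 6.67, 16.1, 7.35, 20.1, 17.6 and 16.2 RPKM in BV2, 91.6 and 93.2 in microglia, and 124 and 259 in BMDM. Hist1h4c (chr13:23790007-23790318, minus strand) was at 7.54, 16.1, 8.33, 19.9, 20.0 and 15.3 RPKM in BV2, 95.5 and 81.1 in microglia, and 74.1 and 169.7 in BMDM. Together they supplied 64.4% of H4 in Q7 microglia and 70.5% in Q175 microglia, while no gene supplied more than 16.5% of its class among H2A, H2B, H3 and H4 in the empty-vector 24 h library. Hist4h4, the single gene of its cluster, was at 0.106 to 0.521 RPKM in BV2 and 5.85 to 9.20 in primary cells.

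Transcript models were 310 to 2974 bases long, and 54 of the 67 were under 800 bases. In the empty-vector 24 h library the median level was 11.1 RPKM for the 54 short models and 3.49 for the 13 longer ones. The medians were 33.1 and 11.2 RPKM in Q175 BMDM. In Q7 microglia they were nearly equal, at 4.53 for short and 5.14 for longer models. The longer models include Hist1h1c, Hist1h1d, Hist1h1e and Hist4h4, so length and class are mixed in these medians. Where the extra length lies was not examined, and the table does not show where in a model the reads lay.

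**Figure D2:**
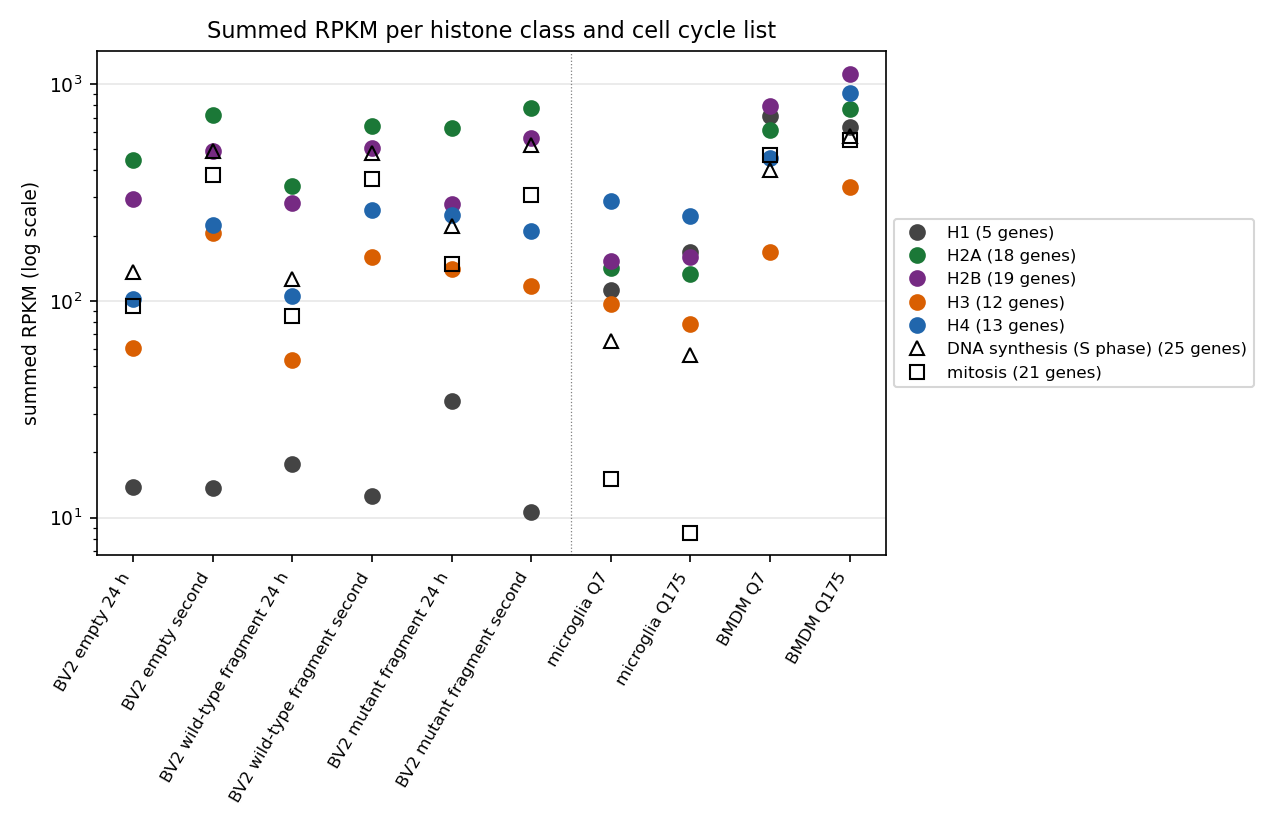
Summed RPKM (log y axis) of the genes of each histone class, of 25 genes of DNA synthesis and of 21 genes of mitosis in each of the 10 RNA libraries (x axis). The mitosis sum was 15.1 and 8.53 in microglia and 469 and 553 in BMDM, while the H4 sum was 290.3 and 247 in microglia and 458 and 909 in BMDM.

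Microglia were compared with BMDM to ask how resident brain macrophages differed from cultured ones. The histone genes were mostly lower in microglia: limma on log2(RPKM + 1), with genotype as a second term, called 49 of 58 tested genes lower and 1 higher, at an adjusted p under 0.05. Over all 10687 genes tested, 49.2% were lower and 18.2% higher, and the median difference (microglia minus BMDM, log2) was -1.98 for the histone genes and -0.53 for all genes. With 2 libraries a side and 1 residual degree of freedom, a single standard error of 0.26 was shared by all genes in limma, so its p-values order genes by size alone. Without the filter on low values it called 0 histone genes. Fewer cycling cells and less RNA per cell cannot be told apart in such bulk libraries.

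The largest differences in this contrast were in Hist1h2an (-4.11), Hist1h1b (-3.97), Hist1h2af (-3.90), Hist1h4f (-3.83), Hist2h2bb (-3.73), Hist1h3i (-3.72), Hist1h2bm (-3.65) and Hist1h3g (-3.16), so all 5 classes were among them. The H2A gene Hist1h2an was at 1.05 and 0.889 RPKM in Q7 and Q175 microglia and at 30.9 and 35.01 in Q7 and Q175 BMDM, and Hist1h2af at 2.46 and 1.33 against 36.3 and 47.5. Of H4, Hist1h4f was at 16.0 and 5.83 against 121 and 193, and of H2B, Hist1h2bm was at 7.08 and 3.94 against 57.4 and 106. The microglial and BMDM ranges of these genes did not overlap. The H3 genes Hist1h3i (2.37 and 1.30 against 26.3 and 48.6) and Hist1h3g (2.33 and 1.21 against 15.0 and 35.5) were likewise apart, although both lie in a class whose Hist1h3a went the other way. All 15 H2A genes tested fell in this contrast, as did 12 of 15 of H2B, 9 of 11 of H3, 10 of 12 of H4 and 3 of 5 of H1. Hist1h3a, of H3, rose by 1.14 (limma, adjusted p = 3.66e-05), with 33.9 and 32.2 RPKM in microglia against 8.72 and 23.5 in BMDM. The 8 genes not called were Hist1h1d (-0.38), Hist1h1e (-0.15), Hist1h2be (-0.54), Hist1h2bg (0.44), Hist1h3e (-0.03), Hist1h4c (-0.35), Hist3h2bb-ps (-0.18) and Hist4h4 (0.24). After quantile normalization, which moved the median of all genes to 0.01, limma called 41 lower and 6 higher, with a median of -1.27, beside 32.7% of all genes lower and 33% higher.

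The other genes of the pathway were lower in microglia as well. All 25 genes of DNA synthesis (median -2.64) and all 21 of mitosis (-3.62) fell, with Mki67, the proliferation marker, at 1.20 and 0.729 RPKM in microglia and 61.4 and 66.3 in BMDM. Pcna, the DNA polymerase clamp, fell by 1.99 and Rrm2, a subunit of the enzyme that makes deoxynucleotides, fell by 3.53 on the log2 scale. Of 16 genes of histone mRNA synthesis and processing, 10 fell and 1 rose (median -0.87). Among them Slbp, at 9.40 and 7.40 RPKM against 20.4 and 21.95, fell by 1.24, and Npat fell by 0.56 (limma, adjusted p = 0.0481). Lsm10 did not pass (7.52 and 7.02 RPKM against 7.01 and 10.6). Histone chaperones gave 14 lower and 1 higher of 20, and genes of CDK inhibitors and quiescence 6 lower and 2 higher of 9. The replication-independent variants, most of which are made also outside S phase and carry poly(A) tails, gave 8 lower and 1 higher of 9. The exception was H3f3b, an H3.3 gene, with 220.2 and 263 RPKM in microglia against 61.0 and 73.6 in BMDM, while the other H3.3 gene, H3f3a, was at 4.80 and 4.32 against 13.4 and 20.0.

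The Q175 alleles were compared with Q7 to see the effect of expanded endogenous huntingtin. Across both cell types, limma with cell type as a term called 1 of 58 histone genes, Hist1h2bl, higher in Q175, and none lower; 0.112% of all 10687 genes were called higher and 0.225% lower. Hist1h2bl (chr13:21807632-21808012, minus strand), an H2B gene, was at 1.16 RPKM in Q7 and 3.21 in Q175 microglia, and at 3.49 in Q7 and 10.5 in Q175 BMDM. It rose by 1.16 (SE 0.26, limma, adjusted p = 0.00622), with 15 and 35 reads behind the microglial values. This call was lost with a pseudocount of 5, without the filter on low values and after quantile normalization. The next largest were the linker genes Hist1h1e (0.85, adjusted p = 0.203) and Hist1h1d (0.82, adjusted p = 0.266), then Hist1h4m (0.74) and Hist1h2bg (0.69). At the other end stood Hist1h4f (-0.32), Hist1h1b (-0.18), Hist2h2be (-0.18) and Hist1h2af (-0.09), and 11 histone genes of 58 had an unadjusted p under 0.05, against 283 of all genes.

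Within the cell types, the 2 genotypes stood in different order, each with 1 library and so without a test. In BMDM, 55 of 58 histone genes were higher in Q175, with a median difference (log2) of 0.72 against 0.18 for all genes, of which 70.6% were higher. Of these histone genes, 12 exceeded 2-fold, as did 1.31% of all genes. In microglia, 21 of 58 were higher and 37 lower, with a median of -0.21 against -0.08 for all genes, of which 33.3% were higher, and 1 was more than 2-fold lower (0.505% of all genes). All genes thus also lay mostly lower in Q175 microglia and mostly higher in Q175 BMDM. Of the histone genes, 36 were lower in Q175 microglia and higher in Q175 BMDM, 19 were higher in both, 1 was lower in both, and 2 were higher in microglia and lower in BMDM.

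By class, the BMDM medians were 0.70 for H1, 0.63 for H2A, 0.56 for H2B, 0.92 for H3 and 0.94 for H4, with every H3 and H4 gene higher in Q175. The microglial medians were 0.60 for H1, -0.05 for H2A (0.05 after quantile normalization), 0.00 for H2B, -0.35 for H3 and -0.29 for H4. The gene more than 2-fold lower in Q175 microglia was Hist1h4f, at 16.0 RPKM in Q7 and 5.83 in Q175, although in BMDM it was at 121 in Q7 and 193 in Q175. The linker genes were not uniform. Hist1h1e was at 20.3 and 41.5 RPKM in Q7 and Q175 microglia and 25.1 and 41.6 in BMDM, so it was higher in Q175 of both cells. Hist1h1c was higher in Q175 microglia (0.60) and lower in Q175 BMDM (-0.66).

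**Figure D3:**
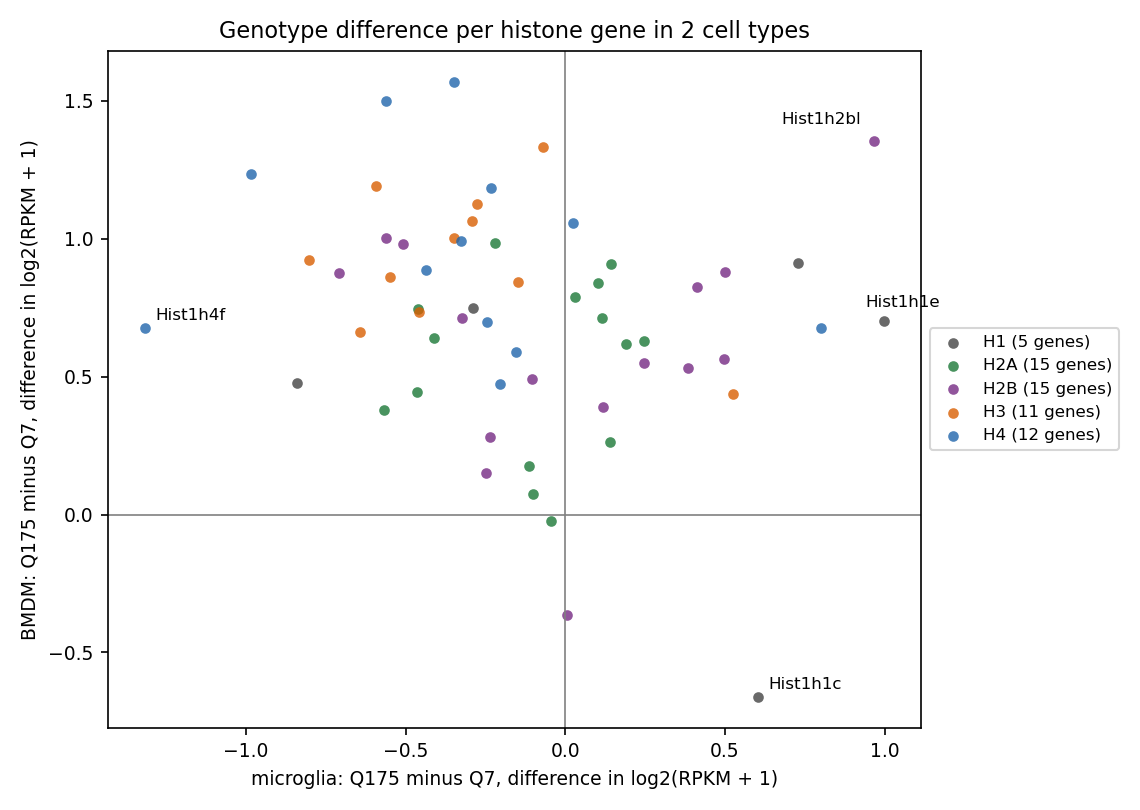
Difference between Q175 and Q7 libraries on the log2(RPKM + 1) scale in microglia (x axis) and BMDM (y axis) for 58 histone genes, coloured by class. Of these genes, 36 lie to the left of 0 and above it, and Hist1h2bl, Hist1h1e, Hist1h1c and Hist1h4f are labelled.

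Genes of the cell cycle had medians of the same signs as those of all genes. In Q175 microglia, 22 of 25 DNA synthesis genes (median -0.21) and 21 of 21 mitosis genes (-0.29) were lower, and in Q175 BMDM 23 of 25 (0.45) and 17 of 21 (0.25) were higher. The medians for histone mRNA processing were -0.07 in microglia and 0.25 in BMDM, and those for chaperones -0.21 and 0.26. CDK inhibitors and genes of quiescence, which hold cells out of the cycle, gave 3 of 9 higher in microglia (-0.04) and 8 of 9 higher in BMDM (0.22). Neutrophil marker genes also differed, with a median of -1.44 in microglia (10 of 10 lower) and -0.55 in BMDM. Their part in the histone values was not tested. Across both cell types none of Slbp, Npat or Lsm10 was called, with Slbp at 20.4 and 21.95 RPKM in Q7 and Q175 BMDM, Npat at 3.35 and 4.10 and Lsm10 at 7.01 and 10.6.

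In BV2 cells, the second-time library stood above the 24 h library for nearly all histone genes in the 2 control lines, and for 35 of 64 in the mutant line. In empty-vector cells 62 of 64 tested genes were higher at the second time (median difference 0.84, log2), and 24 exceeded 2-fold. In wild-type-fragment cells 62 of 64 were higher (1.03) and 36 exceeded 2-fold, and in mutant-fragment cells the median was 0.26, with 6 genes more than 2-fold higher and 2 more than 2-fold lower. The shares of all genes more than 2-fold higher were 6.01%, 5.78% and 5.39%, and 3.42% were more than 2-fold lower in the mutant line. In the fit over all 3 constructs (limma, construct and time as terms), 61 of 64 histone genes were higher at the second time (median 0.77, against 0.10 for all genes), but none was called, nor was any of 10350 genes (0%). At an unadjusted p under 0.05 there were 35 histone genes and 2812 genes in all, and limma with a mean-variance trend also called none. Without the mutant 24 h library 57 histone genes were called (56 higher), beside 30.8% of all genes higher and 14.2% lower. Without the mutant second-time library there were 56 (55 higher), beside 30.7% and 14.2%, and with a pseudocount of 5 there were 21, beside 3.51% and 0.783%.

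The largest estimate was that of Hist2h2bb, whose BV2 values given above were higher at the second time in each construct (difference 1.54, SE 0.13, limma, adjusted p = 0.056). Hist2h4, of H4, followed with 1.25 (adjusted p = 0.0667), at 6.00, 6.38 and 9.50 RPKM at 24 h and 21.1, 18.8 and 15.6 at the second time for empty, wild-type and mutant. The H3 genes Hist2h3b (1.17) and Hist2h3c2 (1.08) came next. Hist2h3b was at 8.14, 6.31 and 16.4 RPKM at 24 h and 25.8, 22.6 and 19.8 at the second time, and Hist2h3c2 at 4.07, 4.26 and 12.96, then 15.0, 13.1 and 14.4. In these 3 genes the mutant line stood highest at 24 h and showed the smallest gap between the times. The only tested genes with a negative estimate were 3 linker genes, Hist1h1c (-1.02), Hist1h1d (-0.40) and Hist1h1e (-0.12), while the linker gene Hist1h1b was at 0.54. Hist1h1e was at 2.10, 1.77 and 3.21 RPKM at 24 h and 2.30, 2.33 and 1.54 at the second time for empty, wild-type and mutant, so it was lower at the second time in the mutant line and not in the controls. Hist1h1d was at 0.877, 1.23 and 2.38, then 0.816, 1.06 and 0.656.

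By class, the control lines and the mutant line had opposite signs in H3 and H4, a difference between single pairs of libraries for which no test was made. The second-time minus 24 h median of H3 was 1.56 in empty-vector cells, 1.38 in wild-type-fragment cells and -0.44 in mutant-fragment cells, and that of H4 was 1.01, 1.26 and -0.33. H2B was at 0.75, 0.81 and 0.93, and H2A was at 0.70, 0.99 and 0.54. H1 (4 genes tested) was at 0.02, 0.08 and -0.88. The first 2 values changed sign to -0.05 and -0.02 after quantile normalization. In sums, H3 stood at 60.7 and 205 RPKM in empty-vector cells, 53.3 and 159.9 in wild-type-fragment cells, and 140.1 and 117 with the mutant. H4 stood at 102 and 223, 106 and 262, and 249.5 and 210.4 in the same order.

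**Figure D4:**
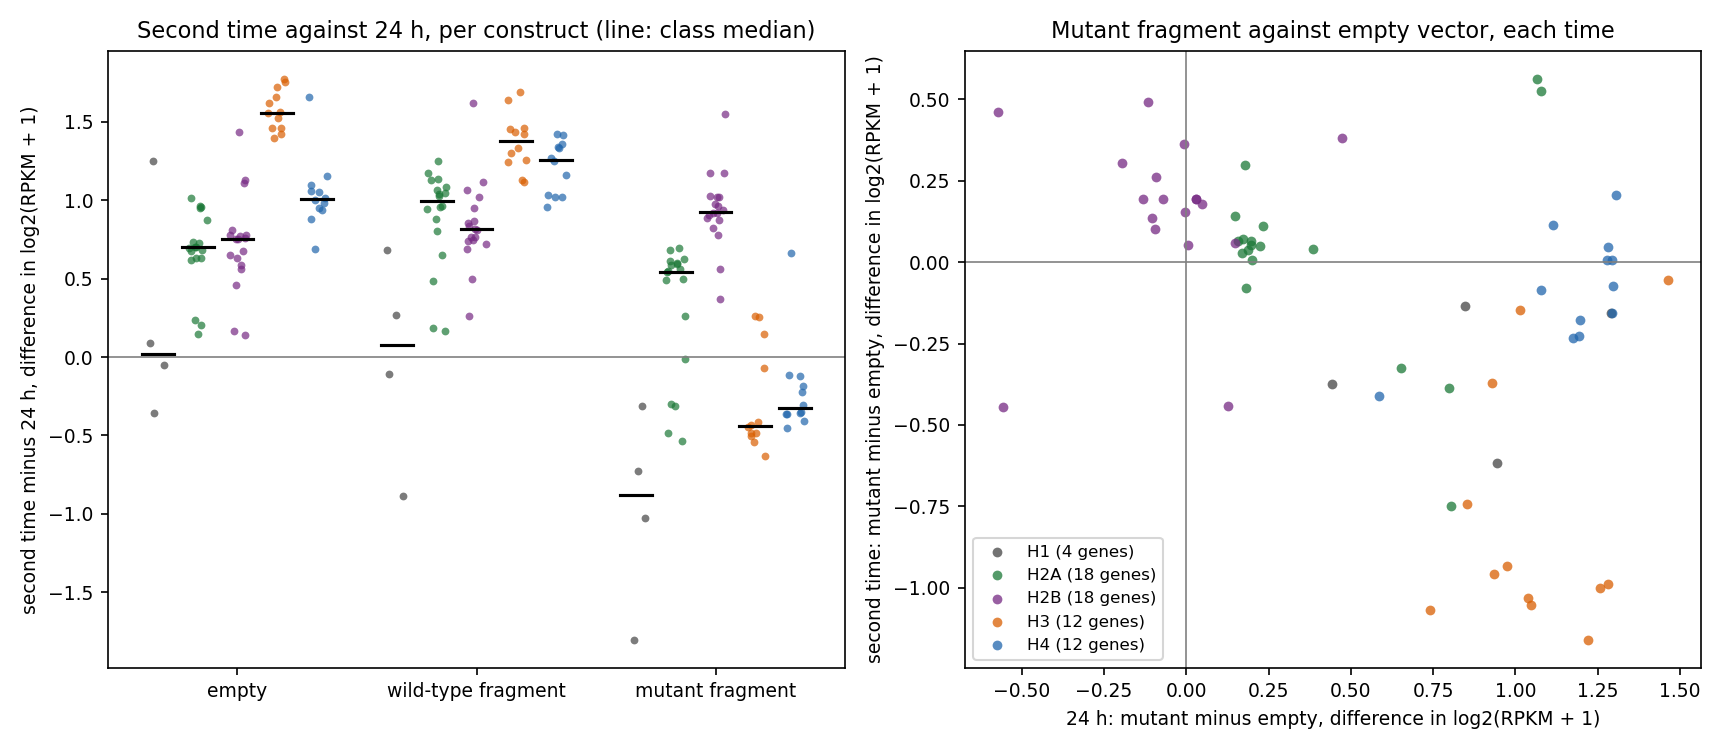
Left, second-time minus 24 h difference (log2(RPKM + 1) scale, y axis) of 64 histone genes by class and construct; right, mutant minus empty difference at 24 h (x axis) and at the second time (y axis), coloured by class. H3 and H4 genes lie above 0 in both control lines on the left, and to the right of 0 at 24 h on the right.

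The mutant fragment was compared with each control to see the effect of the expanded fragment; both comparisons use the same 2 mutant libraries. Over the 2 times, limma called no histone gene of 64 against the empty vector and none against the wild-type fragment, where 0.087% and 0.0676% of all genes were called higher and 0% lower. With a mean-variance trend limma also called none in either comparison, and an unadjusted p under 0.05 was found for 4 histone genes and 1584 genes in all against the empty vector, and for 4 and 1644 against the wild-type fragment. The median difference was 0.13 with 58 of 64 genes higher against the empty vector, and 0.36 with 61 of 64 higher against the wild-type fragment, beside medians of -0.00 and -0.01 over all genes. Leaving out 1 mutant library changed the calls: against the empty vector there were 32 (31 higher) on the 24 h mutant library alone and 9 (8 lower) on the second-time one alone. Of all genes, 17.6% were then called higher and 15.6% lower on the 24 h library, and 5.31% higher and 10% lower on the second-time one. Against the wild-type fragment there were 38 (all higher) and 6 (4 lower), beside 17.2% of all genes higher and 16.1% lower, and 5.4% higher and 11.9% lower.

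The largest estimates against the empty vector were those of Hist2h2aa1 (0.82, SE 0.20, limma, adjusted p = 0.222) and Hist2h2aa2 (0.80, adjusted p = 0.223). These genes overlap in the mm9 positions given, though not in the RefSeq promoters. Hist2h2aa1, an H2A gene at chr3:96049461-96050038, was at 109 and 88.5 RPKM in mutant-fragment cells, 51.6 and 59.6 in empty-vector cells and 49.7 and 56.6 in wild-type-fragment cells, so the mutant libraries stood above all control libraries at both times. Hist1h4i (0.76, adjusted p = 0.464 by limma) and Hist2h3c2 (0.70, adjusted p = 0.465) followed. At the low end were Hist2h2bb (-0.50, adjusted p = 0.278), Hist1h3f (-0.16), Hist2h2be (-0.16) and Hist1h2ba (-0.05). Hist1h4i, of H4, was at 7.58, 6.26 and 20.2 RPKM at 24 h and 12.8, 17.3 and 15.0 at the second time for empty, wild-type and mutant, so its high mutant value belonged to 24 h alone. Hist1h3f, of H3, was at 2.61, 2.05 and 5.03, then 8.49, 5.68 and 3.53. Hist1h2ba, of H2B, was at 12.9, 9.34 and 8.39, then 14.4, 15.7 and 20.2. Hist2h2be, also of H2B, was at 5.02, 5.37 and 5.57, then 12.2, 11.9 and 8.70, lowest in the mutant line at the second time. Against the wild-type fragment, the estimates were 0.88 for Hist2h2aa1 (adjusted p = 0.194) and Hist2h2aa2 (adjusted p = 0.196), 0.77 for Hist2h3c2 and 0.67 for Hist1h4i, and the only negative ones were -0.18 for Hist2h2be, -0.09 for Hist3h2ba and -0.01 for Hist1h2bm.

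Taken at each time, with 1 library a side and no test, the mutant line differed by class. At 24 h all 12 H4 genes and all 12 H3 genes were higher than in empty-vector cells, with medians of 1.24 and 1.03. More than 2-fold higher were 11 of H4 and 7 of H3, and 5.5% of all genes. Many genes of a class are near-identical and held similar read numbers in BV2. In the empty-vector 24 h library, short single-copy Hist1 genes held 22 to 32 reads for H3 and 23 to 45 for H4. These counts of genes are therefore not counts of separate observations. H1 (4 genes tested) was at 0.90, H2A at 0.20 and H2B at -0.04. At the second time the median of H3 was -0.97, with all 12 genes lower and 5 more than 2-fold lower (3.32% of all genes), that of H4 was -0.08, H1 -0.26, H2A 0.05 (-0.04 after quantile normalization) and H2B 0.19. Against the wild-type fragment the medians at 24 h were 1.25 for H3, 1.16 for H4, 0.60 for H1, 0.72 for H2A and 0.02 for H2B (-0.05 after quantile normalization), and at the second time -0.58, -0.29, -0.35, 0.23 and 0.12. The H3 gene farthest below the empty vector at the second time was Hist1h3a, chosen after its values were seen. It was at 3.73, 3.58 and 10.0 RPKM at 24 h for empty, wild-type and mutant, and at 14.9, 11.6 and 6.12 at the second time.

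The wild-type fragment against the empty vector gave 0 calls of 64 by limma, and 0% of all genes, with 24 genes higher, 40 lower and a median of -0.06. With a mean-variance trend there were 0 calls too, and an unadjusted p under 0.05 was found for 2 histone genes and 66 genes in all. By class the signs differed: all 18 H2A genes were lower at both times (medians -0.46 at 24 h and -0.17 at the second time), all 12 H3 genes were lower at the second time (-0.36), and 11 of 12 H4 genes were higher then (0.25). Each is a difference between 2 single libraries, without a test, and near-identical genes of a class are not separate observations. On the low side the largest estimates were Hist2h2bb (-0.57), Hist1h3g (-0.46), Hist1h3e (-0.44) and Hist1h2ah (-0.38). Hist1h3g was at 5.33 and 17.2 RPKM in empty-vector cells (24 h, then the second time) and 3.42 and 12.8 in wild-type-fragment cells, and Hist1h2ah at 28.7 and 46.5 against 18.9 and 40.8. On the high side were Hist3h2ba (0.51), Hist1h4b (0.27), Hist1h1d (0.21) and Hist1h4d (0.21). Hist3h2ba was at 0.146 and 0.578 RPKM in empty-vector cells and 0.615 and 1.28 in wild-type-fragment cells, and Hist1h4b at 8.70 and 18.2 against 10.8 and 21.9.

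Sums of cell cycle genes were higher at the second time in all 3 lines. The 25 genes of DNA synthesis summed to 136 and 490 RPKM (24 h, then the second time) in empty-vector cells, 127 and 480.4 in wild-type-fragment cells and 220.4 and 524 in mutant-fragment cells. The corresponding sums of the 21 mitosis genes were 94.8 and 381, 85.0 and 364.5, and 147 and 309. The mutant 24 h library therefore had more of both than the other 24 h libraries, and H3 and H4 stood higher in it too. At the second time its DNA synthesis sum was the highest of the 3 while its H3 sum was the lowest. Their part in the histone values was not tested.

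No gene of the other lists was called between the times, although 25 of 25 DNA synthesis genes (median 1.53), 21 of 21 mitosis genes (1.45), 16 of 17 of histone mRNA processing (0.56) and 20 of 21 chaperones (0.63) were higher at the second time. Variants (6 of 9 higher, 0.09) and CDK inhibitors (6 of 10 higher, 0.14) had medians beside the 0.10 of all genes. Slbp was at 3.83 and 12.1 RPKM in empty-vector cells, 3.98 and 13.7 in wild-type-fragment cells, and 5.48 and 6.82 in mutant-fragment cells (difference 1.09, limma, adjusted p = 0.108). Npat was at 2.01 and 3.19, 2.03 and 3.29, and 1.96 and 1.03. For both genes the mutant second-time library lay below the 2 control ones, as it did for H3. Lsm10 ranged from 3.95 to 5.07 RPKM. Pcna was at 32.0 and 106, 34.9 and 108, and 46.7 and 127, and Rrm2 at 3.90 and 22.7, 3.19 and 24.2, and 7.46 and 32.2, so these 2 S phase genes were highest in the mutant line at each time. Mki67 was at 7.06 and 26.2, 5.22 and 26.3, and 4.26 and 10.5.

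The replication-independent variants did not follow a single course in BV2. H2afz, a variant of H2A placed at gene starts, was at 68.5 and 221 RPKM in empty-vector cells, 58.9 and 241 in wild-type-fragment cells, and 107 and 214 with the mutant. H2afx, the variant phosphorylated at DNA breaks, was at 13.1 and 33.3, 10.6 and 32.5, and 18.5 and 34.9. H3f3a lay between 98.6 and 146 in all 6 libraries, and H3f3b between 30.0 and 79.7. H1f0, the linker histone of resting cells, was at 20.8 and 25.1, 22.6 and 22.9, and 35.9 and 9.39. H1f0 was thus highest in the mutant 24 h library and lowest in the mutant second-time one. Against the empty vector over both times, 22 of 25 DNA synthesis genes were higher (median 0.30), 11 of 21 of mitosis (0.04), 9 of 17 of histone mRNA processing (0.00), 10 of 21 chaperones (-0.01), 6 of 9 variants (0.11) and 4 of 10 CDK inhibitors (-0.24), none of them called.

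The 4 control BV2 libraries were also set against primary cells, where cell type and library origin cannot be told apart. Against microglia limma called 39 of 67 histone genes higher in BV2 and 14 lower (41.5% and 30.3% of 11693 genes), with a median difference (BV2 minus microglia, log2) of 1.73, and 0.23 over all genes. All 5 linker genes fell. Of H2A 14 of 18 rose and 2 fell, of H2B 13 of 19 rose and 2 fell, of H3 7 of 12 rose and 2 fell, and of H4 5 of 13 rose and 3 fell. The largest, beside Hist1h2ao and Hist1h2ap, which are listed at 0 in microglia and get no fold here, were Hist2h2aa1 (4.93), Hist1h2ah (4.81), Hist2h2aa2 (4.74), Hist1h4n (4.54), Hist1h2bp (3.96) and Hist1h2bn (3.94). Hist2h2aa1, Hist2h2aa2 and Hist1h4n are genes with more than 1 copy. Hist1h4n was at 16.2 to 44.8 RPKM in the 4 control libraries and at 0.188 and 0.112 in microglia. Single-copy examples are Hist1h2ah of H2A, at 18.9 to 46.5 RPKM in the 4 control libraries against 0.379 and 0 in Q7 and Q175 microglia, and Hist1h2bn of H2B, at 19.7 to 44.4 against 0.847 and 1.19. Hist1h2bp, also of H2B, was at 14.2 to 26.5 against 0.247 and 0.354. Over the 58 single-copy genes that overlap no other, 32 rose and 13 fell, with a median of 1.42. Single-copy genes also differed in read spread between the library sets. Hist1h2ah and Hist1h2ag held 123 reads each in the empty-vector 24 h library, and 5 and 45 in Q7 microglia. How far the counting of shared reads bears on this subset was not tested. Apart from Hist1h1a, left out because it had 1 read in the 4 control libraries, the genes that fell were led by Hist1h1d (-3.28), Hist1h1e (-3.27), Hist1h4d (-2.92), Hist4h4 (-2.88), Hist1h1c (-2.81), Hist1h4c (-2.78) and Hist2h2bb (-2.30). Hist1h1d was at 0.816 to 1.23 RPKM in the 4 control libraries and at 14.0 and 23.9 in microglia, and Hist1h1e at 1.77 to 2.33 against 20.3 and 41.5. In BV2 all 21 mitosis genes rose (median 2.49), and so did 18 of 25 of DNA synthesis (1.97).

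Against BMDM, 26 of 67 histone genes fell and 17 rose in BV2 (42% and 23.7% of 11693 genes), with a median of -0.52, and -0.27 over all genes. After quantile normalization the split was 21 lower and 22 higher, with a median of -0.04, beside 33.3% of all genes lower and 31.5% higher. All 5 linker genes fell again, with Hist1h1c at -5.30 (SE 0.31, limma, adjusted p = 2.88e-06) and Hist1h1b at -5.70; Hist1h1a had 1 read in the 4 control BV2 libraries, so its size is not given. The same held for 5 of 18 of H2A, 5 of 19 of H2B, 5 of 12 of H3 and 6 of 13 of H4, whereas 7, 7, 2 and 1 rose. Hist2h2bb (-6.03, SE 0.52, adjusted p = 2.57e-05 by limma) and Hist2h2ac (-4.08), which lead H2B and H2A in BMDM, were among the largest falls. The largest rises outside Hist1h2ao and Hist1h2ap were Hist1h4n (3.98), Hist1h2bq and Hist1h2br (3.81 each) and Hist2h2aa1 (3.34), all with more than 1 copy. Over the 58 single-copy genes 24 fell and 10 rose, a subset for which the counting of shared reads was not tested either. The counts were 17 lower and 16 higher without the Q175 BMDM library, and 26 lower and 13 higher without the Q7 one. Mitosis genes gave 9 lower and 1 higher of 21 and DNA synthesis genes 6 lower and 1 higher of 25.

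The chromatin at histone gene starts was measured in BV2 by ChIP-seq for H3K4me2, a mark of active promoters and enhancers, and for PU.1, C/EBPα and C/EBPβ, transcription factors of myeloid cells, with 1 library per antibody and construct and no test between constructs. A peak of H3K4me2 lay within 1000 bases of 53 of 67 histone starts in empty-vector cells (79.1%), 52 in wild-type-fragment cells (77.6%) and 55 in mutant-fragment cells (82.1%). The same was true of 90.0%, 89.6% and 89.9% of 10350 genes expressed in BV2. Marked in all 3 libraries were 47 histone genes. The 9 without a peak in any were Hist1h2aa, Hist1h2ba, Hist1h2ao, Hist1h2ap, Hist1h2bq, Hist1h2br, Hist1h4m, Hist1h4n and Hist3h2ba, of which 5 are genes with more than 1 copy. All 12 H3 starts were marked in empty-vector cells and in mutant-fragment cells, and 11 in wild-type-fragment cells.

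H3K4me2 peaks covered the start less often than positions 900 bases downstream, in histone genes and in expressed genes alike. How far reads shared between near-identical genes bear on the histone values was not tested. The start itself was inside an H3K4me2 peak for 8, 10 and 11 histone genes (11.9%, 14.9% and 16.4%, for empty, wild-type and mutant), against 52.4%, 47.1% and 44.5% of expressed genes. At 500 bases upstream 31.3%, 28.4% and 37.3% of histone starts were covered, against 73.1%, 70.6% and 69.8%, and at 900 bases downstream 59.7%, 50.8% and 62.7%, against 80.8%, 79.0% and 79.2%. At 3000 bases upstream the order was reversed, with 23.9%, 29.9% and 32.8% of histone windows covered and 11.8%, 10.96% and 11.52% of the others. Of the 67 histone starts, 59 had another start within 5000 bases, counting genes listed at the same position. The share among all genes was not counted, and which gene a distant peak belongs to was not tested.

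**Figure D5:**
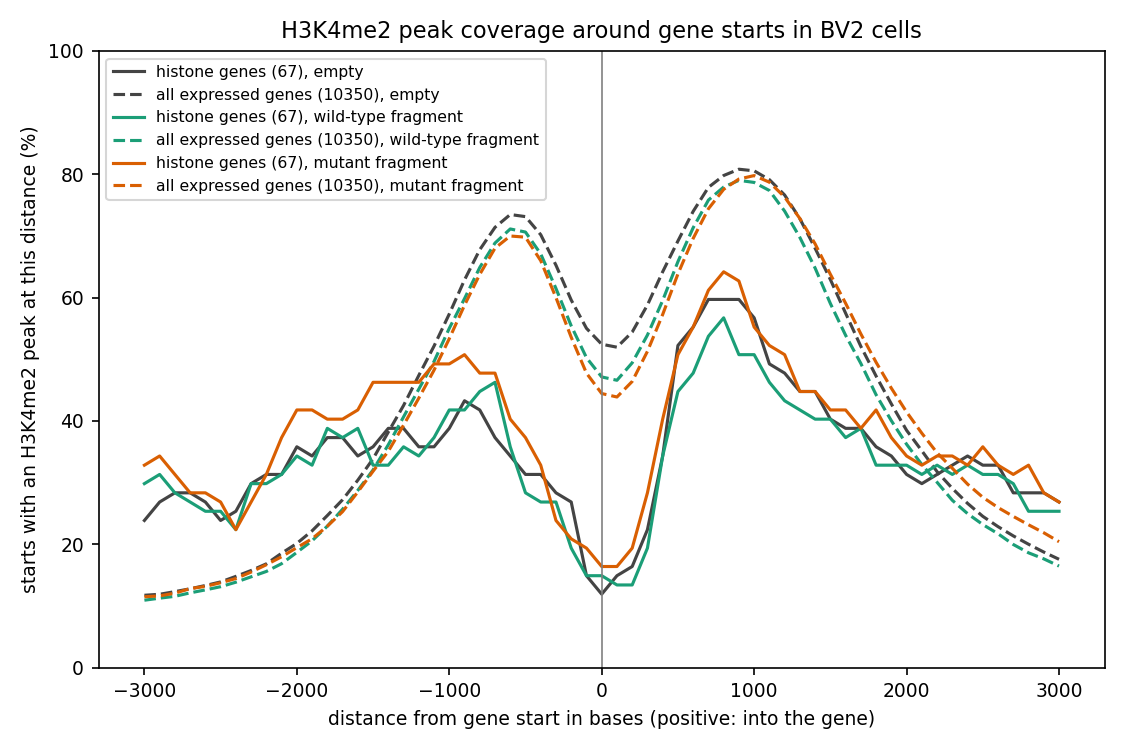
Share of gene starts covered by an H3K4me2 peak (percent, y axis) at distances from 3000 bases upstream to 3000 downstream of the start (x axis), for 67 histone genes and 10350 expressed genes in the 3 BV2 lines. Both sets dip at the start. Histone coverage is lower than that of the other genes in all 3 lines from 1000 bases upstream to 2000 downstream. It is higher at 3000 bases on both sides.

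PU.1 peaks lay within 1000 bases of 12, 9 and 7 histone starts (17.9%, 13.4% and 10.4%, for empty, wild-type and mutant), against 39.4%, 26.4% and 33.6% of expressed genes. C/EBPβ peaks lay near 14, 29 and 21 (20.9%, 43.3% and 31.3%, against 30.8%, 54.7% and 41.1%). For C/EBPα they were near 11, 16 and 3 (16.4%, 23.9% and 4.48%, against 9.55%, 23.4% and 8.74%). The number of peaks called differed between these libraries as well, from 53835 to 71846 for PU.1, 9117 to 19732 for C/EBPα and 35964 to 69522 for C/EBPβ, and its part in these shares was not tested. Peaks of PU.1 stood near Hist1h3e, Hist1h3f, Hist1h4h and Hist2h4 in all 3 lines, and none of the 5 linker genes had one in any. Hist1h4h and Hist2h4, both of H4, had peaks of all 3 factors and of H3K4me2 in all 3 lines.

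The clusters differed in how many peaks they held. The Hist2 block (chr3:96022839-96074623, mm9, 51.8 kb with 10 starts) held 16, 9 and 11 PU.1 peaks and 11, 12 and 11 H3K4me2 peaks for empty, wild-type and mutant, with a median H3K4me2 width of 2404, 2380 and 2330 bases. The first Hist1 block (chr13:21807012-21930399, 123.4 kb with 18 starts) held 2 PU.1 peaks and no C/EBPα peak in each line, and its H3K4me2 peaks had median widths of 772, 783 and 1132 bases. The Hist1 block with most genes (chr13:23621913-23856537, 234.6 kb with 28 starts) held 13, 12 and 13 PU.1 peaks.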

How the data were processed

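The RNA libraries were deposited as 1 table of RPKM per transcript model, and per the file headers the authors gave the values in RPKM. The submitters' processing notes name the build mm9, Bowtie, STAR 2.0.3e, HOMER and edgeR without roles, and how reads shared between copies were counted is not stated in any source used here. The 12 ChIP libraries were deposited as peak lists called per library by HOMER against an input whose name in the headers refers to another macrophage source, at 4-fold over input and over the local background, per the file headers. Their deposited score column held a constant 1 and was not used.

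RPKM was turned to log2(RPKM + 1), which understates the change of low genes, and tested with limma 3.58.1 in R 4.3.3 over all genes that reached 1 RPKM in 2 or more of the libraries fitted, with Benjamini-Hochberg adjustment and a threshold of 0.05. The 6 BV2 libraries were fitted with construct and time, the 4 primary libraries with genotype and cell type, and the 4 control BV2 libraries and 4 primary ones by cell type. The script was tested on simulated data. Depth, from the size of 1 read in the RPKM values, was 10.77 to 14.01 M reads in BV2 and 28.76 to 47.78 M in primary cells. The 24 h and second-time libraries take the place of replicates.

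The rule for named genes was the 2 of highest mean level in each class, called genes up to 8 by size, the 4 largest differences in each direction where none was called (for some of which only the estimate is given), and Slbp, Npat, Lsm10, Pcna, Mki67, Rrm2, H2afz, H2afx, H3f3a, H3f3b and H1f0; Hist1h3a at each BV2 time and the genes named beside the ChIP peaks were chosen after their values were seen. The histone genes and all gene lists were chosen with earlier results of these data known. Other pseudocounts, no filter on low values, quantile normalization, leaving out each library, single-copy genes alone and other ChIP windows were tried. Peaks counted as near a start at 1 base or more within 1000 bases. Protein sequences were not used here. Marker lists of erythroid cells (summed 0.365 to 7.45 RPKM), lymphocytes (at most 5.21) and neural or endothelial cells (5.37 to 44.9) were read as well as those in the results.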

Additional observations from a re-analysis of the deposited data

Results flagged for a closer look

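Differences of opposite direction between groups were found for the histone genes at 2 points, each with 1 library a side, and neither difference was tested. The first is the effect of the Q175 alleles, as Q175 minus Q7 on the log2 scale. Its median over all 58 histone genes was -0.21 in microglia and 0.72 in BMDM. Over all genes the medians had the same signs, -0.08 and 0.18, with 33.3% and 70.6% of genes higher. By class it was -0.05 and 0.63 for H2A, -0.35 and 0.92 for H3, and -0.29 and 0.94 for H4. The H2A value in microglia became 0.05 after quantile normalization.

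The second is the effect of the mutant fragment in BV2, given first for 24 h and then for the second time. The H1 median against the empty vector was 0.90, then -0.26, and against the wild-type fragment 0.60, then -0.35. It is a median over 4 genes, of which Hist1h1b had 4 to 25 reads per BV2 library. For H3 it was 1.03 and -0.97 against the empty vector, and 1.25 and -0.58 against the wild-type fragment. For H4 it was 1.24 and -0.08, and 1.16 and -0.29. The H4 value of -0.08 had no clear direction, with 5 genes higher and 7 lower, beside a median of -0.02 over all genes. Both comparisons use the same mutant libraries.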

How the results depend on the processing

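Over the settings tried, 171 values of whole comparisons stayed within 1.5 times or 1 interval of the value given and 26 moved. Those that stayed include class sums with Hist1h1t (at most 0.138 RPKM) added back. Such sums could hardly move, so they say nothing about stability. Of values for single genes, 2323 kept direction and side of the threshold, 166 moved, 101 came to pass the threshold, 71 ceased to, and 6 reversed. Leaving out 1 BV2 library in turn gave 0 to 32 called histone genes for mutant against empty, 0 to 38 for mutant against wild-type fragment, and 0 to 57 for time, assuming that a lone library varies like the others; the 2 libraries that decide this are the mutant ones. With a pseudocount of 5 the time contrast called 21. The genotype contrast called 0 with a pseudocount of 5, without the filter on low values and after quantile normalization, and microglia against BMDM called 0 without the filter; the cause was not tested. Leaving out a primary library in that fit left no residual degrees of freedom, so no test was made.

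The 2 times carry shared numbers across constructs, and time is a term of the BV2 fit. Without it (no replicate block) 0 histone genes were called in mutant against empty, 0 in mutant against wild-type fragment and 0 in wild-type fragment against empty. No paired analysis was possible for primary cells because there was 1 library per group.

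Single-gene values that reversed on leaving out a mutant library ran from -1.001 to 0.67 for Hist1h3f, from -0.93 to 0.91 for Hist1h3e and from -1.27 to 0.70 for H1f0 against the empty vector, and from -1.26 to 0.71 for H1f0 against the wild-type fragment, each positive on the 24 h mutant library. Also reversed were, after quantile normalization, Hist1h3e (0.96) and Lsm10 (0.50) between microglia and BMDM. Within 500 bases of the start, H3K4me2 was at 61.2%, 56.7% and 61.2% of histone genes (empty, wild-type, mutant), PU.1 with the empty vector at 8.96%, C/EBPα with the wild-type fragment at 13.4%, and C/EBPβ at 8.96%, 29.9% and 17.9%. Within 2000 bases C/EBPβ was at 58.2% (wild-type) and 43.3% (mutant), and H3K4me2 by peak centre was at 52.2%, 49.3% and 52.2%. The narrower window alone lowers such shares. Depth limits the low histone genes: Hist1h1a had 0 to 2 reads in BV2 libraries.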
